A study of Rattus norvegicus with 28 samples.

Results

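The 10 genes described here are members of the circadian clock: Arntl (Bmal1), Clock, Npas2, Per1, Per2, Per3, Cry2, Nr1d1, Nr1d2 and Dbp. They were found by gene symbol among the 35469 gene-level features of a whole-genome rat array, where all 10 were present. They were selected on the difference between 8 and 4 weeks after spinal cord injury, in which Arntl was lower and several other clock genes were higher. Values from that contrast are therefore given as a description only, with no test. Tests of 4 and 8 weeks against sham animals share arrays with it and are no independent view of it.

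The arrays profiled thoracic spinal cord of adult female Sprague Dawley rats, with 4 arrays in each of 7 groups. T0 animals were sham controls, whereas T1, T2, T4 and T8 animals received a severe contusion of 250 kdyn and were sampled 1, 2, 4 and 8 weeks later. T1_NPC animals received neural progenitor cells (NPC) right after contusion and were sampled at 1 week. T2_NPC animals received NPC 1 week after contusion and were sampled at 2 weeks, so that T1 and T2 were their time-matched controls. The NPC came from the cords of injured adult rats, and FK-506 (tacrolimus), an immunosuppressant that binds FK506-binding proteins, was given from a day before transplantation. The authors list tacrolimus in the care of all animals, but do not say how groups without NPC were dosed. They state that injured controls were injected with cell-free medium. Each sample was a 1.5 cm piece of cord around the epicentre, and the time of day of sampling was not given in the sources used here. In such bulk tissue, fewer cells of a type and less RNA per cell cannot be told apart.

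The clock is a feedback loop of transcription that runs in nearly every cell with a period of about a day. ARNTL pairs with CLOCK or with NPAS2 and activates genes that carry E-boxes, among them those of its own repressors, the PER and CRY proteins, and those of the nuclear receptors NR1D1 and NR1D2 (REV-ERB alpha and beta). The REV-ERBs in turn repress Arntl through ROR elements, and DBP, an output regulator driven by E-boxes, acts on D-boxes. In most tissues the messenger RNA of Arntl peaks when those of Nr1d1, Dbp and the Per genes are low.

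These elements can be seen in the RefSeq promoters of the rat genome (build GRCr8), in which all 10 genes had an entry and 4 held at least one of the letters searched. Searched on both strands were the E-box CACGTG (in 6.42% of 33469 promoter windows of 300 bases), its variant CACGTT (4.83%), the D-boxes TTATGTAA (0.893%) and TTACGTAA (0.12%), and the ROR elements TAGGTCA (2.63%) and TGGGTCA (4.09%). Shown are the 250 bases upstream of the start of 3 genes that sit at different places in the loop, with matches in capitals. Arntl (listed as Bmal1) lies on the plus strand at chr1:176766078-176766327 and held a ROR element at -16. Per2 lies on the minus strand at chr9:99496994-99497243 and held a D-box at -192 and an E-box variant at -62. Nr1d1, at its second listed start on the minus strand at chr10:84229455-84229704, held an E-box at -191.
Arntl: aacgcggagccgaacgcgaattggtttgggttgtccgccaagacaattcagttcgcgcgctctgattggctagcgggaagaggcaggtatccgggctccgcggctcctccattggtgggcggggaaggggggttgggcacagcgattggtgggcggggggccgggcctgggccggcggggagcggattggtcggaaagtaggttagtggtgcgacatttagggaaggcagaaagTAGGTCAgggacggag
Per2: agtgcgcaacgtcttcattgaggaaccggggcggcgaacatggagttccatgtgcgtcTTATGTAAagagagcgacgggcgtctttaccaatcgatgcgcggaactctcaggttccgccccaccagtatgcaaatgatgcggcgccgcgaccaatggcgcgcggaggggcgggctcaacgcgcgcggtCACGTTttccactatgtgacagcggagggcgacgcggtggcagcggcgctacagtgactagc
Nr1d1: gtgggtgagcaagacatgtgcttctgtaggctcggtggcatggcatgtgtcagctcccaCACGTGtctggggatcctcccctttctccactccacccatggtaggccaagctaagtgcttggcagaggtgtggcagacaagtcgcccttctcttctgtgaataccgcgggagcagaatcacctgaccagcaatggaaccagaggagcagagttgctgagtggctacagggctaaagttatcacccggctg
A match is a description of these windows and not a bound site. Cry2 and the first listed start of Nr1d1 also held the variant CACGTT, and the windows of the other 6 genes did not contain these letters.

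Some arrays need a remark before the values. The authors' value table, which names its columns by sample, was used throughout. For 16 of the 28 arrays the scanner output that matched a column had been deposited under another sample, so every result was also computed with each scanner output given to the sample it was filed under. That reading called 0 members in limma in every comparison. Of all features it called 1 in T2 and 0 in T1, T4 and T8 against T0. With NPC at 2 weeks it called 43. Under the value table the summed level of the 7 neuronal markers ran from 18.35 to 18.71 in T0 and from 16.52 to 17.71 in the injured groups, on the log2 scale, so that the sham arrays stood clear of all others. The microglia and macrophage markers ran from 14.55 to 14.82 in T0 and from 16.57 to 17.58 after injury. The arrays fell on 7 slides and in 3 scan sessions. The T0 to T8 groups were spread over the first and second sessions, while the third held only the 8 arrays with NPC. Each NPC group filled a slide of its own. The first session held 2 arrays each of T0, T2 and T8 and 1 each of T1 and T4. Among T0 to T8 these were also the undisputed arrays, so that the first session and the undisputed arrays are no separate checks. The second T1_NPC array stood farthest from the rest of its group, with a root mean square distance of 0.81 log2 units over all features against 0.43 to 0.61 for the other 27 arrays.

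All values below are log2 levels, on which a difference of 1 is a 2-fold change. Differences carry their standard error and a p-value adjusted over all 35469 features with the Benjamini-Hochberg method in limma. Against T0, 1 of 10 members was called after 1 week, 3 after 2, 1 after 4 and 4 after 8 weeks. Injury called 44.1%, 40.0%, 38.5% and 39.7% of all features in the same comparisons. The share of clock genes called lay below this background at T1 and T4 and was close to it at T2 and T8. Over 10 genes, nothing particular to the clock is read from these counts. Between neighbouring times, 1 member was called from T1 to T2, where 1.48% of all features were called. From T2 to T4, limma called 0 members, with 2 members at an unadjusted p below 0.05 and 0.0761% of all features called. Robust moderation with a trend also called 0. With NPC, 2 members were called at 1 week (background 11.9%) and 1 at 2 weeks (background 9.47%).

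**Figure D1:**
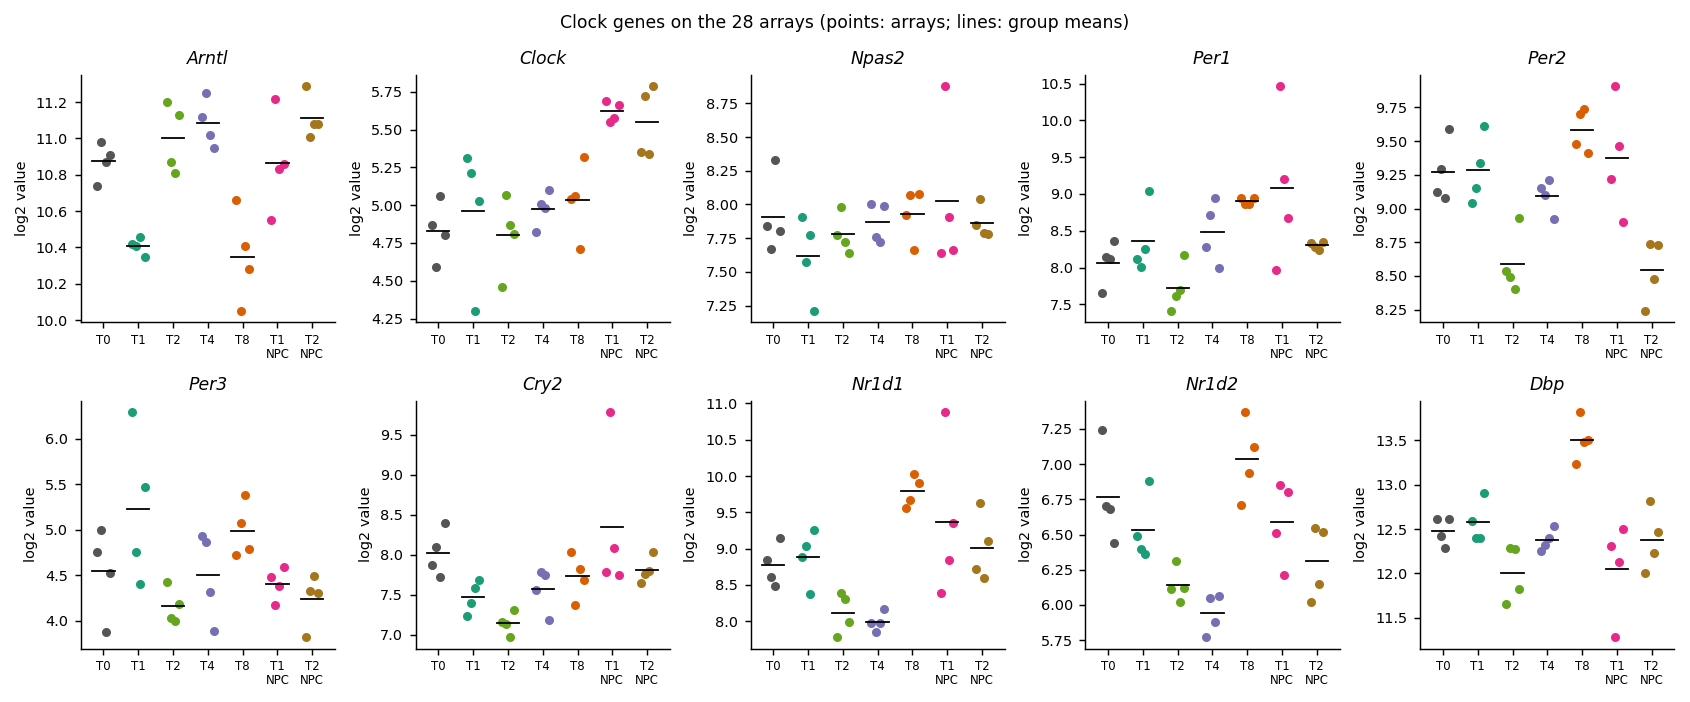
The log2 level of each clock gene (vertical axes, scaled gene by gene) on the 4 arrays of each of the 7 groups (horizontal axis). Points are arrays and lines are group means. Arntl sits lowest in T1 and T8, Dbp and Nr1d1 have their highest means in T8, and the second T1_NPC array lies far above its group for Per1, Cry2, Nr1d1 and Npas2 and far below it for Dbp.

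Arntl, the activator without which the loop stops, was low at 1 and at 8 weeks and within or above the sham range in between. In T0 the 4 arrays read 10.74, 10.98, 10.87 and 10.91. In T1 they read 10.42, 10.41, 10.46 and 10.35, and in T8 they read 10.66, 10.05, 10.41 and 10.28. All 8 of those T1 and T8 values lay under the lowest T0 array. T2 gave 11.20, 10.87, 10.81 and 11.13, and T4 gave 11.12, 11.25, 11.02 and 10.95 and both groups overlapped T0. Arntl fell by 0.46 ± 0.13 from T0 to T1 (adjusted p = 0.00605) and was lower in T8 than in T0 by -0.52 ± 0.13 (adjusted p = 0.00255). From T1 to T2 it rose by 0.59 ± 0.13 (adjusted p = 0.0229), without overlap of the arrays. T2 and T4 differed from T0 by 0.13 ± 0.13 (adjusted p = 0.494) and 0.21 ± 0.13 (adjusted p = 0.226). With only the undisputed arrays, those of the first session, the T1 difference was -0.39. It rested on 1 T1 array against 2 T0 arrays, too few for a call to be read. The T1 and T8 differences from T0 had the same sign within both scan sessions, at -0.39 and -0.54 for T1 and at -0.64 and -0.41 for T8. The rise from T1 to T2 was 0.42 in the first session and 0.76 in the second. It lost its call when any one of the 4 T1 arrays other than the third was left out, or the first or the fourth T2 array, with adjusted p from 0.0502 to 0.111.

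Neither partner of Arntl was called against T0 at any time at the gene level. Clock, whose protein binds E-boxes together with ARNTL, averaged 4.83 ± 0.20 in T0, then 4.96 ± 0.46, 4.80 ± 0.25, 4.98 ± 0.12 and 5.03 ± 0.25 at 1, 2, 4 and 8 weeks (SD, n = 4 each). The largest difference from T0, 0.21 ± 0.18 in T8, was not called (adjusted p = 0.402). Npas2, the partner that stands in for CLOCK in the forebrain and elsewhere, was measured by 2 probes, and its mean over both gave no call, with differences from T0 between -0.29 and 0.02.

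The mean concealed 2 opposite courses. Both Npas2 probes were assigned to the same transcript, and both lay on chromosome 9 of the array's own build, rn4, at chr9:38433884-38433943 and, across an intron, at chr9:38418402-38430968. Their sequences are shown because the reading of Npas2 rests on which of them is used.
A_44_P945456: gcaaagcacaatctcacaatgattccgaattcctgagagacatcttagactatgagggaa
A_44_P405793: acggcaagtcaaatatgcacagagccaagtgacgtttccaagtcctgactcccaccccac
Fitted as single probes, A_44_P945456 fell by 1.31 ± 0.30 from T0 to T1 (adjusted p = 0.000968) and was lower in T2 by -0.85 ± 0.30 (adjusted p = 0.026). Its differences in T4 and T8, -0.60 and -0.61, were not called (adjusted p = 0.125 and 0.116). A_44_P405793 rose by 0.72 ± 0.16 in T1 (adjusted p = 0.000663), 0.59 ± 0.16 at 2 weeks (adjusted p = 0.00423), 0.51 ± 0.16 at 4 weeks (adjusted p = 0.0126) and 0.66 ± 0.16 in T8 (adjusted p = 0.00174). Its T0 arrays spanned 5.68 to 6.21 and its T1 to T8 arrays 6.22 to 6.80. Both probes were well above background on all 28 arrays. The neuronal markers fell in the same comparisons, 7 of 7 on the array at every time, and what part they have in the probes' values was not tested.

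**Figure D2:**
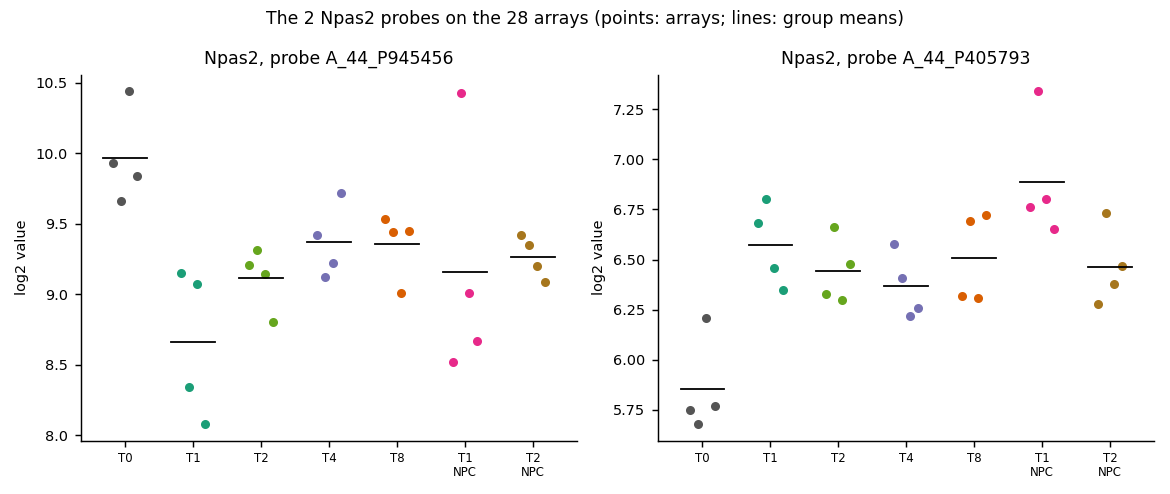
The log2 level of the 2 Npas2 probes (vertical axes) on the 4 arrays of each group (horizontal axis), with lines at the group means. The left probe has its highest mean in T0 (9.97) and its lowest in T1 (8.66), whereas the right probe has its lowest mean in T0 (5.85).

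Among the repressors, Per2 and Cry2 were low at 2 weeks and Per1 was high at 8 weeks. Per1, an early-response repressor that also answers to light and glucocorticoids, read 7.65, 8.14, 8.11 and 8.36 in T0 and 8.94, 8.87, 8.87 and 8.94 in T8. The T8 arrays lay above all T0 arrays and close together, while T4 spread from 7.99 to 8.94. The difference from T0 to T8 was 0.84 ± 0.34 and just passed the test (adjusted p = 0.0498), and leaving out any one of 21 of the 28 arrays took the call away, with adjusted p from 0.0508 to 0.144. It was also lost with normexp (0.63, adjusted p = 0.0684).

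Per2, the repressor whose loss shortens the period in mice, read 9.12, 9.29, 9.08 and 9.59 in T0. Its T2 arrays read 8.54, 8.49, 8.40 and 8.93, all below T0, and it fell by 0.68 ± 0.18 (adjusted p = 0.00371). From T1 to T2 the arrays of Per2 did not overlap either, with a difference of -0.70 ± 0.18 that missed the threshold (adjusted p = 0.0505). It passed with scan session as a block (-0.63, adjusted p = 0.0422).

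Cry2, a cryptochrome that represses the activator pair, read 7.87, 8.10, 7.72 and 8.40 in T0 against 7.16, 7.14, 6.97 and 7.31 in T2. It fell by 0.88 ± 0.29 at 2 weeks (adjusted p = 0.0186), and by 0.74 and 1.01 within the first and second scan sessions. In T1 its arrays lay below T0 without overlap (mean 7.48 against 8.02), but the difference of -0.55 ± 0.29 was not called (adjusted p = 0.138). It passed without the second T1_NPC array (adjusted p = 0.00805), as did the T4 difference of -0.46 (adjusted p = 0.0286), and the T1 difference also passed with only the groups compared (adjusted p = 0.037). Without the fourth T0 array the T2 difference was -0.75 and no longer called (adjusted p = 0.0637).

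Per3, the third Per gene, was called in no comparison when its probes were averaged. It was measured by 3 probes. A_43_P16143 and A_44_P196198 hold several of the same stretches of letters and lie on chromosome 5.
A_43_P16143: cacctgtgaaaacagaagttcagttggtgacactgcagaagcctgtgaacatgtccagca
A_44_P196198: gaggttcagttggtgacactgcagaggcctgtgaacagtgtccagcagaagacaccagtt
The third, A_44_P407318, was drawn from another transcript and was well above background on 2 of 28 arrays. Its value of 7.44 on the first T1 array, against 1.39 for the lowest array of that group, set the high Per3 mean of 6.29 there. The first pair gave differences of 0.59 ± 0.25 and 0.69 ± 0.29 in T1 against T0 (adjusted p = 0.0587 and 0.0564). Averaged without the dim probe A_44_P407318, Per3 passed in T1 against T0 (0.64, adjusted p = 0.0318), and it also passed there with quantile-normalized scanner outputs (0.71, adjusted p = 0.0492) and normexp (0.25, adjusted p = 0.00916). From T1 to T2 it passed with normexp (-0.34, adjusted p = 0.0199).

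Of the REV-ERB genes, Nr1d2 fell at 2 and 4 weeks and Nr1d1 rose at 8 weeks. Nr1d1 read 8.84, 8.61, 8.48 and 9.15 in T0, 7.78, 8.39, 8.31 and 7.99 in T2, and 7.98, 7.85, 7.97 and 8.17 in T4. All T2 and T4 arrays lay below all T0 arrays, with differences of -0.66 ± 0.34 and -0.78 ± 0.34 that did not pass the test (adjusted p = 0.136 and 0.0761). Both passed without the second T1_NPC array, which is in neither group but enters the shared spread (adjusted p = 0.0244 and 0.00858), and with only the groups compared (adjusted p = 0.0322 and 0.00594). In T8 its arrays read 9.56, 9.67, 10.03 and 9.90, all above T0, and it rose by 1.02 ± 0.34 (adjusted p = 0.0198). That rise was 1.12 and 0.91 in the 2 sessions, and it lost its call without the third T0 array (0.92, adjusted p = 0.0574) or the third T8 array (0.94, adjusted p = 0.0544).

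Nr1d2 read 7.24, 6.70, 6.68 and 6.44 in T0, 6.11, 6.31, 6.02 and 6.12 in T2, and 5.77, 6.05, 5.88 and 6.06 in T4. It fell by 0.62 ± 0.18 at 2 weeks (adjusted p = 0.00683) and by 0.83 ± 0.18 at 4 weeks (adjusted p = 0.000677), without overlap with T0 at either time. With only the undisputed arrays the T4 difference was -0.90, from 1 T4 array against 2 T0 arrays, too few for a call to be read. Its T8 arrays read 6.71, 7.37, 6.94 and 7.12 and overlapped T0, with a difference of 0.27 ± 0.18 (adjusted p = 0.246). Whether both receptors differed in this was not tested.

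Dbp, the output regulator of the PAR bZIP family, was the member with the smallest adjusted p in T8 against T0. Its arrays read 12.61, 12.42, 12.29 and 12.61 in T0 and 13.23, 13.82, 13.48 and 13.50 in T8. The T8 arrays were also above all 24 other arrays of the series, the highest of which read 12.91 in T1. Those 24 include the T4 arrays of the contrast that chose the genes, so this is a description only. The rise from T0 to T8 was 1.03 ± 0.22 (adjusted p = 0.000442), and it was 1.21 in the first scan session and 0.84 in the second. The Dbp arrays of T2 read 11.65, 12.29, 12.28 and 11.82, with a difference from T0 of -0.47 ± 0.22 (adjusted p = 0.0871). With the 75th percentile scaling of the scanner outputs this difference was -0.61 and passed (adjusted p = 0.0378), and it passed without the second T1_NPC array (adjusted p = 0.0321).

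**Figure D3:**
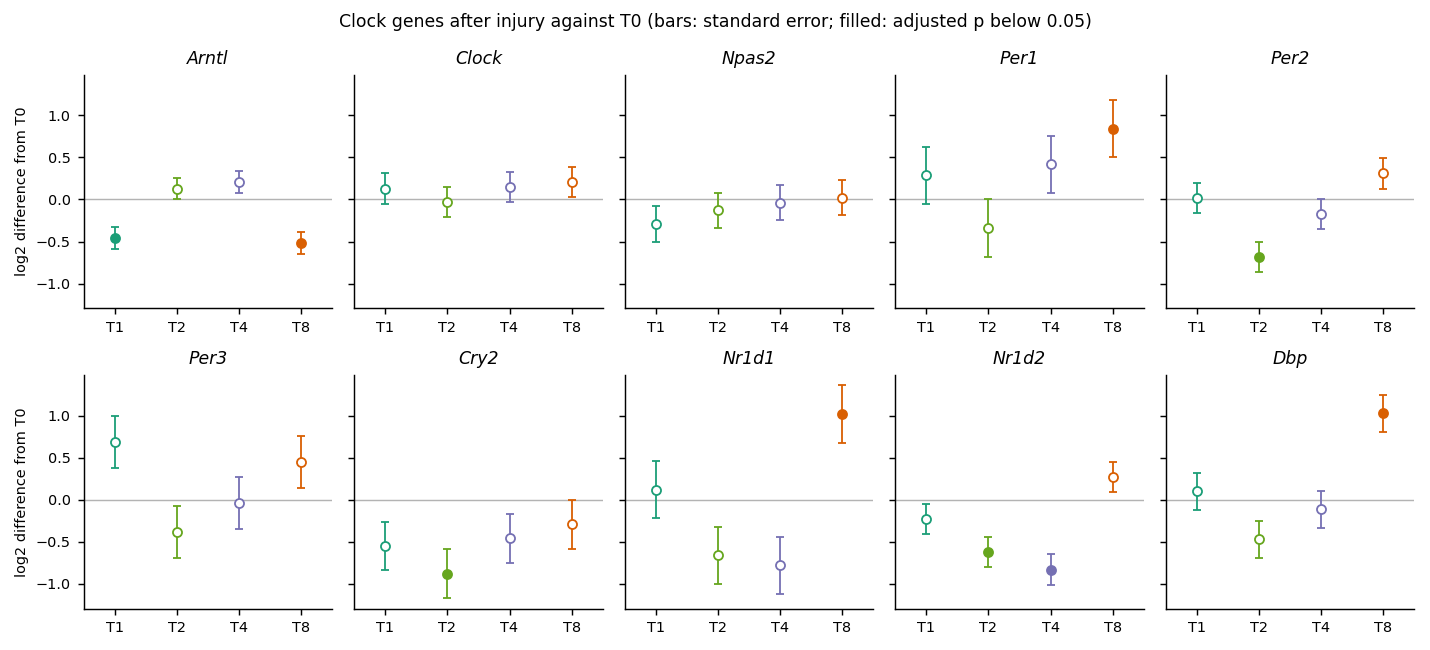
The log2 difference of each clock gene from T0 (vertical axis) at 1, 2, 4 and 8 weeks (T1 to T8, horizontal axis), as means of 4 against 4 arrays with standard errors. Filled points have an adjusted p below 0.05. Arntl is filled and below 0 at T1 and T8, while Per1, Nr1d1 and Dbp are filled and above 0 at T8.

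The contrast that chose the genes can be read from the same arrays, with no test. From T4 to T8, Arntl was lower by -0.74 and Nr1d1 and Dbp were higher by 1.80 and 1.13. Nr1d2 had a mean of 5.94 in T4 and 7.04 in T8. In these 4 genes and in Per2 (0.49) no T8 array overlapped a T4 array. Per1 (0.42), Per3 (0.49), Cry2 (0.16), Npas2 (0.07) and Clock (0.06) overlapped. The share of all features without overlap is not given here, so nothing particular to the clock genes is read from this. Within the first and second sessions the difference was -0.79 and -0.59 for Arntl, 1.61 and 1.87 for Nr1d1, 1.19 and 0.93 for Nr1d2, and 1.13 and 1.03 for Dbp. The comparisons of T4 and T8 with T0 share these arrays and are no independent view of that contrast.

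Among other genes of the clock machinery, several were called at every time after injury. Of 18 such genes, 15 were on the array, and 9, 7, 6 and 8 of them were called in T1, T2, T4 and T8 against T0, where 44.1%, 40.0%, 38.5% and 39.7% of all features were. At each time 6 were higher, and 3, 1, 0 and 2 were lower. Of all 35469 features, 6772, 6294, 6193 and 6461 were called higher and 8885, 7882, 7445 and 7637 lower. Their median differences were 0.19, 0.18, 0.30 and 0.27, where the median over all features was -0.099, -0.055, -0.06 and -0.045. The same 6 genes rose at all 4 times: Arntl2, Bhlhe40, Bhlhe41, Csnk1d, Csnk1e and Timeless. The share of all features that rose at all 4 times is not given here, so nothing particular to the clock is read from this. Arntl2, a paralogue of Arntl that also partners CLOCK, rose by 1.50 ± 0.24 in T1 (adjusted p = 1.66e-05) and 1.08 ± 0.24 in T8 (adjusted p = 0.000732), and both of its probes rose at every time, one of them being well above background on 24 of 28 arrays. With normexp the Arntl2 rises were 0.38 in T1 and 0.27 in T8 (adjusted p = 2.06e-05 and 0.000891). Bhlhe40 (DEC1), an E-box repressor induced by many stimuli including hypoxia, rose by 0.97 ± 0.19 in T1 and 1.32 ± 0.19 in T8 (adjusted p = 0.000184 and 4.97e-06). Csnk1d, a kinase that phosphorylates PER proteins, rose by 1.02 ± 0.17 in T1 (adjusted p = 2.75e-05) and 0.54 ± 0.17 in T8 (adjusted p = 0.0129).

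Timeless, which in mammals also serves DNA replication forks, rose by 1.43 ± 0.22 in T1 (adjusted p = 1.31e-05) and 0.65 ± 0.22 in T8 (adjusted p = 0.0229). Its T4 rise of 0.58 was not called with normexp (0.47, adjusted p = 0.0602). The other 23 of these 24 rises were called under that correction, and all 24 were called under both other scalings of the scanner outputs. The Csnk1e rise rested on 1 of its 2 probes, since A_44_P192988 rose by 1.25 in T1 (adjusted p = 6.5e-08) and A_42_P515454 read -0.06 (adjusted p = 0.758). Of the Bhlhe41 probes, A_44_P463858 was called at all 4 times, but A_43_P15357 was not called in T1 (0.21, adjusted p = 0.0838) or T2 (0.24, adjusted p = 0.0547). These rises ran beside those of the microglia and macrophage markers and of the fibroblast and meninges markers, of which 7 of 7 and 4 of 4 rose at every time. The part of these cells in the values was not tested.

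Cry1, the other cryptochrome of the loop, was called lower in T1 and T8, as Arntl was. It fell by 0.64 ± 0.20 in T1 (adjusted p = 0.0127) and was lower by -0.62 ± 0.20 in T8 (adjusted p = 0.017). The differences were -0.46 ± 0.20 in T2 (adjusted p = 0.0765) and -0.14 ± 0.20 in T4 (adjusted p = 0.645). In T2 the Cry1 arrays, at 9.80 to 10.25, also lay below all T0 arrays, at 10.41 to 10.59, whereas those of Arntl overlapped T0. Tef, a PAR bZIP relative of Dbp, fell by 0.68 ± 0.16 in T2 (adjusted p = 0.00135) and read 0.16 ± 0.16 in T8 (adjusted p = 0.468). Nfil3, which opposes DBP at D-boxes, read 0.40 ± 0.31 in T1 and -0.15 ± 0.31 in T8 against T0, and was called in neither (adjusted p = 0.322 and 0.759).

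**Figure D4:**
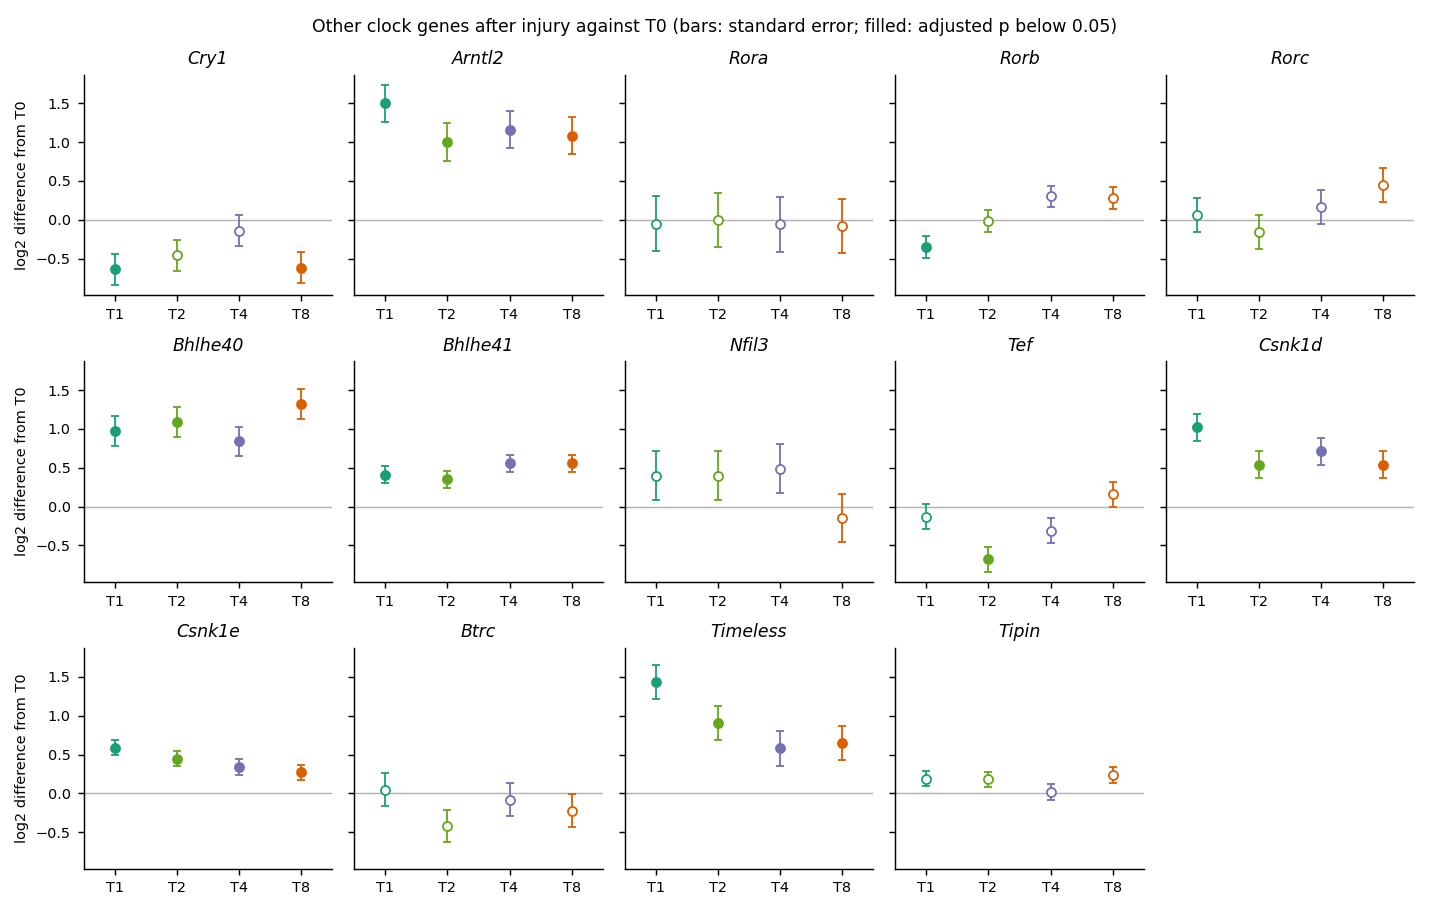
The log2 difference from T0 (vertical axis) of 14 further clock genes at 1, 2, 4 and 8 weeks (horizontal axis), with standard errors and filled points where the adjusted p was below 0.05. Arntl2, Bhlhe40, Bhlhe41, Csnk1d, Csnk1e and Timeless are filled and above 0 at all 4 times, whereas Cry1 is filled and below 0 at T1 and T8.

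Of 5 clock-controlled outputs, 2, 3, 2 and 3 were called at 1, 2, 4 and 8 weeks, and of 6 glucocorticoid-responsive genes 3, 2, 1 and 2 were. These counts stand beside 44.1%, 40.0%, 38.5% and 39.7% of all features called, and nothing particular to either list is read from them. Among the outputs, Nampt, the enzyme that makes the NAD precursor NMN, and Tspan4, a tetraspanin, rose at all 4 times. Nampt rose by 0.65 ± 0.15 in T1 (adjusted p = 0.00121) and Tspan4 by 2.42 ± 0.20 (adjusted p = 7.62e-10). Of the Nampt probes, A_43_P18467 was not called in T2 (0.33, adjusted p = 0.225) and A_42_P570241 was not called in T8 (0.33, adjusted p = 0.0903). Usp2, a deubiquitinase with a strong daily rhythm in many tissues, was lower in T2 by -0.53 ± 0.21 (adjusted p = 0.0472), a call lost with 75th percentile scaling (-0.49, adjusted p = 0.0622). Leo1 was lower in T8 by -0.54 ± 0.15 (adjusted p = 0.00431). Among the glucocorticoid-responsive genes, Sgk1, a kinase, rose at all 4 times (2.15 ± 0.23 in T1, adjusted p = 7.6e-08). Fkbp5, an FK506-binding co-chaperone of the receptor, rose in T1 (0.98 ± 0.40, adjusted p = 0.0497) and Errfi1 in T8 (0.65 ± 0.23, adjusted p = 0.0244). The Fkbp5 call was lost with quantile-normalized scanner outputs (adjusted p = 0.0504) and normexp (adjusted p = 0.0748), and 1 of its 3 probes was called. The Errfi1 call was lost with 75th percentile scaling (0.50, adjusted p = 0.139). Tsc22d3 (GILZ), a direct target of the receptor, was lower in T1 by -0.79 ± 0.28 (adjusted p = 0.0242) and in T2 by -0.77 ± 0.28 (adjusted p = 0.0306), with 1 of its 2 probes called. Called members of this list thus lay on both sides of T0.

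With NPC, Clock was the one member higher at both times. Its T1_NPC arrays read 5.69, 5.55, 5.58 and 5.66 and its T2_NPC arrays read 5.35, 5.72, 5.34 and 5.79, against 4.30 to 5.31 in T1 and 4.46 to 5.07 in T2. It rose by 0.66 ± 0.18 at 1 week (adjusted p = 0.0186) and by 0.74 ± 0.18 at 2 weeks (adjusted p = 0.0111). These 8 arrays also lay above 20 of 20 arrays without NPC, sham included, the highest of which read 5.32. They were also the only arrays of the third scan session, so that NPC and session cannot be told apart here. The Clock probe was dim, and with normexp correction the rises were 0.15 (adjusted p = 0.107) and 0.20 (adjusted p = 0.0409).

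Arntl was higher in T1_NPC, at 10.55, 11.22, 10.83 and 10.86, than in T1, by 0.46 ± 0.13. Its mean was 10.87 in both T1_NPC and T0. For Arntl and for all other differences with NPC, slide and scan session cannot be told apart from NPC. Nor can tacrolimus, if only animals with NPC received it. The Arntl difference was called with all arrays (adjusted p = 0.0268), but not without the second T1_NPC array (0.34, adjusted p = 0.106). Nor was it called without the first, the second or the fourth T1 array (adjusted p = 0.0527, 0.0535 and 0.0632). Clock lost its 1 week call without the third T1 array (0.44, adjusted p = 0.081). Fitting T1_NPC and T1 alone called neither gene (adjusted p = 0.152 for both). At 2 weeks Arntl differed by 0.11 ± 0.13 (adjusted p = 0.665). Cry2 was higher in T1_NPC by 0.87 ± 0.29 without overlap but was not called (adjusted p = 0.0523), and its second T1_NPC array read 9.78 where the others read 7.75 to 8.08. Limma called 0 members for the difference between both transplantation effects, with 2 at an unadjusted p below 0.05, and 0.299% of all features were called. Robust moderation with a trend also called 0. The smallest adjusted p among the members was 0.24, for Dbp, whose effect was -0.52 at 1 week and 0.37 at 2 weeks. Among the other clock genes, Tipin, a partner of TIMELESS, was lower (-0.31) with NPC at 1 week. At 2 weeks Btrc was higher (0.87) and Tipin (-0.48) and Csnk1e (-0.32) were lower.

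Animals of one group were then compared with each other, which the choice of the genes did not use. Within groups, Arntl varied less than most genes, with an SD of 0.18 at the 15.3 percentile of all features, whereas Nr1d1 (0.50) and Per1 (0.49) lay at the 74.4 and 73.8 percentiles. Without the second T1_NPC array the SD of Nr1d1 was 0.33 and that of Per1 0.36. After removing group means, Arntl and Dbp moved in opposite directions over the 28 arrays, with Pearson r = -0.79 and Spearman rho = -0.78 (permutation within groups, two-sided, adjusted over 9 pairs, p = 0.00072 and 0.00054). The correlation was negative in all 7 groups, at -0.39 for T0, -0.90 for T1, -0.99 for T2, -0.75 for T4, -0.98 for T8, -0.81 for T1_NPC and -0.86 for T2_NPC, each over 4 arrays. Leaving out the 2 arrays farthest from the median of Arntl gave -0.72, and leaving out the second T1_NPC array gave -0.71 (adjusted permutation p = 0.00495). With group and session means removed it was -0.78 (adjusted permutation p = 0.00135), and within the 3 sessions it was -0.93, -0.62 and -0.81. Over the undisputed arrays, in groups with more than 1 of them, it was -0.86 and did not pass (adjusted permutation p = 0.123). With only 2 such arrays in each of T0, T2 and T8, few permutations within groups exist, so this test could hardly pass.

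**Figure D5:**
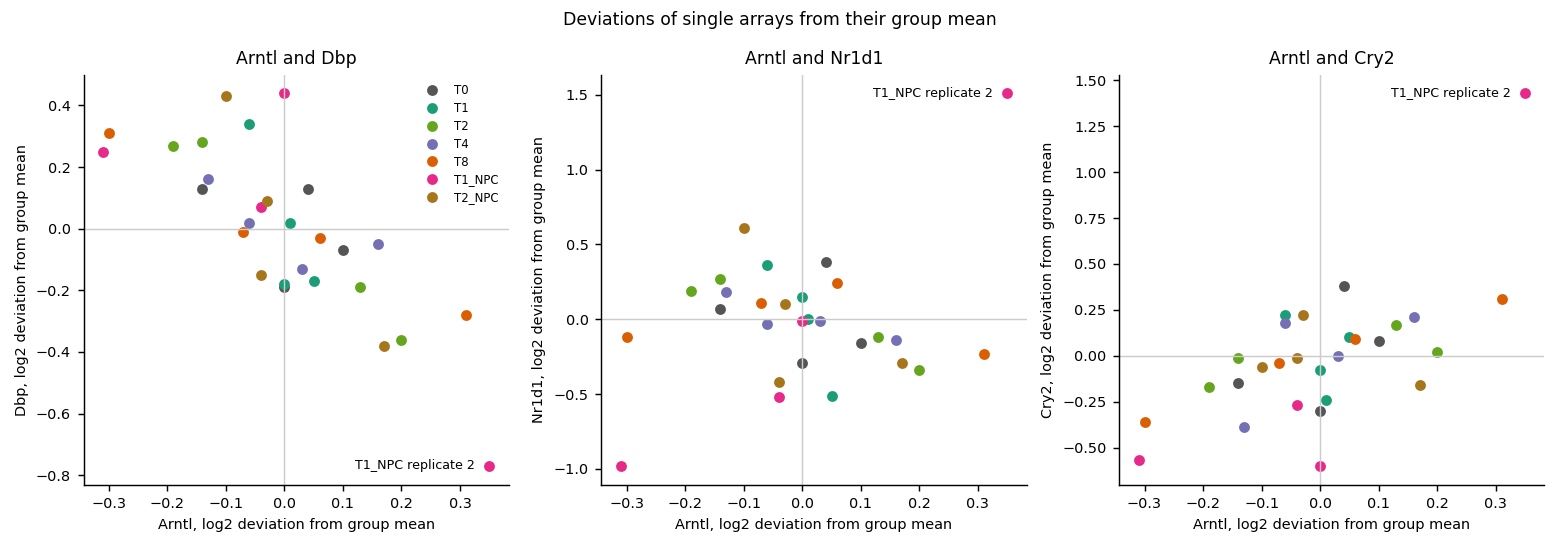
Deviation of each array from its group mean for Arntl (horizontal axes) against Dbp, Nr1d1 and Cry2 (vertical axes), in log2 units and coloured by group. Arntl and Dbp fall along a descending line (r = -0.79), while r for Nr1d1 turns from 0.25 to -0.23 without the labelled second T1_NPC array and r for Cry2 goes from 0.66 to 0.52.

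Cry2 was the other gene that passed with all arrays, and it moved with Arntl (r = 0.66, adjusted permutation p = 0.00846; rho = 0.57, adjusted permutation p = 0.0163). It passed without the second T1_NPC array (r = 0.52, adjusted permutation p = 0.0444). It was 0.50 without the 2 farthest arrays and was not called with session means removed (r = 0.58, adjusted permutation p = 0.412). It was 0.59, 0.10 and 0.76 within the 3 sessions. Nor did Cry2 pass with a fixed slide block (0.59, adjusted permutation p = 0.458) or without T8 (0.65, adjusted permutation p = 0.0643). Over the undisputed arrays its r was 0.02. With scanner outputs under their deposited samples Cry2 gave 0.21 (adjusted permutation p = 0.378). Under that reading Per3 (-0.44, adjusted permutation p = 0.0479) and Nr1d2 (-0.68, adjusted permutation p = 0.0116) passed. Nr1d2 gave r = -0.30 over all arrays (adjusted permutation p = 0.339) and -0.51 without the second T1_NPC array (adjusted permutation p = 0.0444). Per1 gave 0.53 (adjusted permutation p = 0.0815) and 0.28 without it. Clock gave -0.37 (adjusted permutation p = 0.0738) with rho = -0.54 (adjusted permutation p = 0.0163), and within the first session it was 0.94. Npas2, Per2, Per3 and Nr1d1 gave r between -0.02 and 0.27, with the lowest adjusted permutation p at 0.489. With session means also removed, Npas2 gave 0.67 and passed (adjusted permutation p = 0.0374).

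As a description with no test, other pairs also stood out within groups. Per1, Per2 and Cry2 moved together, with r = 0.71 for Per1 and Per2, 0.83 for Per1 and Cry2 and 0.74 for Per2 and Cry2. Without the second T1_NPC array these were 0.56, 0.60 and 0.64. Dbp correlated with Nr1d1 at -0.12 and with Nr1d2 at 0.35 over all 28 arrays, and at 0.72 and 0.68 without that array. That one array turned the sign for Nr1d1, since it held the highest Nr1d1 value of the series, 10.88, with the lowest Dbp value, 11.28.

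The genes most alike were sought among 10874 named genes that passed the background test on each of the 28 arrays, as a description over arrays that share slides and sessions. Arntl was the second lowest of these in correlation with Dbp and Dbp the fifth lowest with Arntl. Nfil3 was the third lowest with Dbp (r = -0.79), and the other 3 of its lowest 5 were Dll1 (-0.81), Mill1 (-0.77) and Pnrc1 (-0.76). Its highest were Metrn (0.81), Fxyd1 (0.79), Dcakd (0.78), Thap3 (0.78) and Gimap1 (0.77). Without the second T1_NPC array Arntl remained the second lowest with Dbp (-0.71), whereas Dbp was no longer among the 5 lowest with Arntl. Over all features its rank from the lowest went from 8 to 106. Without that array Nr1d1 (0.72) was the third highest after Zfp316 (0.74) and Fam168a (0.72). For Arntl the highest were Atp6v1e2, Rbm16 and Gsdma1 (0.82 each), Ttc9 and Ip6k1 (0.80 each), and the lowest included, besides Dbp, Lemd3 (-0.84), Drd5 (-0.80) and Psme2 (-0.80).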

How the data were processed

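Per the file headers, the authors scanned one-colour Agilent arrays and made intensity values per spot with Agilent Feature Extraction 10.7.1.1. The authors also deposited a table of log2 values, quantile normalized between arrays. Values of repeated spots, and then of probes with a common gene symbol, were averaged (35469 features). All 28 arrays were fitted with group means and eBayes in limma 3.58.1 (R 4.3.3), with Benjamini-Hochberg adjustment and a threshold of 0.05. Flags for signal well above background came from the scanner outputs. Correlations used deviations from group means and 100000 permutations within groups (Python 3.11.15, numpy 2.4.6). The scripts were tested on simulated data. The members and gene lists were chosen with earlier results of these data known. Named genes were the members, the listed clock, output and glucocorticoid genes, and the 5 highest and 5 lowest correlations with Arntl and Dbp; 2 of these genes are not reported here. Promoters came from RefSeq tables (GRCr8), and probe positions from the array annotation (rn4). Most scanner outputs lacked mean signals, so normexp used median signals. Fits of single probes, differences within sessions and correlations without the second T1_NPC array were added after seeing the data. Precision is limited by 4 animals per group.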

Additional observations from a re-analysis of the deposited data

Results flagged for a closer look

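In the T1_NPC group, the second array read 9.78 for Cry2 while the other 3 read 7.75 to 8.08. The gap to the nearest array was 0.839 of the whole range of the group, above Dixon's critical value for a group of this size. It was the only one of 70 groups tested (10 genes in 7 groups) that passed, and chance passes about 1 in 20.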

How the results depend on the processing

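With scanner outputs under their deposited samples, 0 members were called in every comparison, the T8 minus T4 value of Arntl was -0.23 in place of -0.74, and Clock in T1_NPC against T1 turned to -0.46. Requiring a 2-fold change left 2 members in T8 and 0 in the other comparisons. In T1 against T0 the count of 1 became 2 with quantile-normalized scanner outputs, without dim probes, with the brightest probe or with only the groups compared, and 3 with normexp. In T4 against T0 it was 2 with only the groups compared. In T2 against T1 it was 2 with quantile-normalized scanner outputs, normexp, no dim probes, slide as a random block, session as a block or robust moderation. It was 0 with only the groups compared. The undisputed arrays held 1 array each of T1 and T4, too few for a count to be read. In T1_NPC against T1 the count of 2 became 1 with slide as a random block and 0 with only the groups compared. In T2_NPC against T2 it became 3 with the undisputed arrays and 2 with only the groups compared. The cause was not tested. Leaving out each array in turn gave 1 to 2 members in T1, 2 to 5 in T2, 1 to 3 in T4 and 2 to 4 in T8 against T0, 0 to 2 in T2 against T1, 1 to 4 in T1_NPC against T1 and 1 to 3 in T2_NPC against T2, and -0.84 to -0.64 for Arntl in T8 against T4. T4 against T2 and the difference of the transplantation effects stayed at 0 members under every alternative run.

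The number of genes correlated with Arntl within groups, 2, became 4 with 75th percentile scaling and 1 with a fixed slide block. It was 0 with the undisputed arrays, which allow few permutations, and ran from 2 to 3 without single arrays. With the replicate block it was 4. The replicate numbers share only a label, since deviations of same-numbered arrays correlated between -0.34 and 0.30 over 84 pairs. With the replicate block the counts of members called were 1, 3, 1 and 4 in T1, T2, T4 and T8 against T0, 1 in T2 against T1, 2 in T1_NPC against T1 and 1 in T2_NPC against T2, as without it.

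A fixed block for slide or session could not be fitted for the NPC comparisons, and no T1_NPC array was undisputed. Scaling to the 75th percentile moved the median of all features to -0.272 in T1 and -0.157 in T4 against T0. A dim probe such as that of Clock is limited by its signal over background.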
